A study of Mus musculus with 12 samples.

Results

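The Hes and Hey genes encode basic helix-loop-helix repressors of transcription, and several of them are the best known direct targets of the Notch pathway. Members of both families (*Hes1*, *Hes5*, *Hes6*, *Hey1*, *Hey2* and *Heyl*) were taken by symbol from the table of RNA-seq counts, together with *Nrarp*, which encodes an inhibitor of Notch that is itself induced by it, and *Rbpj*, which encodes the DNA-binding partner of the Notch receptors. They are 8 of the 28686 gene symbols in the table, and all 8 had enough reads to be tested, as did 18459 symbols in all. Each library held RNA of 1 mouse, taken at P6. The study's results name the tissue as cochlear sensory epithelium, while its methods name cochlear tissues and the labels cochlea. The mice were 6 Sox2CreER/+Jag1fl/fl mutants and 6 Sox2+/+ littermate controls, on a C57BL/6;129SV background by the labels. The study's methods instead name C57BL/6J for the CreER line and FVB/n for the line with floxed *Jag1*. All pups, controls included, received tamoxifen on P0 and P1. CreER is expressed from the *Sox2* locus, which is active in cochlear supporting cells, and tamoxifen lets it remove the floxed part of *Jag1*, a gene for a Notch ligand. Only the mutants carry CreER and a *Sox2* allele changed by it, so the effects of that allele and of the loss of *Jag1* cannot be told apart here. By the study's methods, controls of this name carry 1 or 2 floxed *Jag1* alleles and no Cre, while the labels of these libraries name their *Sox2* alleles only.

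In Notch signaling, a ligand on one cell binds a receptor on its neighbor, the intracellular part of the receptor is cut free, enters the nucleus and joins RBPJ and Mastermind proteins, and genes with RBPJ sites are then transcribed. HES and HEY proteins carry the signal further by repressing other genes, among them those for activators such as ATOH1, which drives hair cell formation. In the embryonic cochlea this chain keeps the neighbors of a hair cell as supporting cells, and it also acts in blood vessels, where endothelial and mural cells use Notch.

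Total counts per library lay between 28498549 and 34430252 in controls and between 31899265 and 36134983 in mutants. Levels are given as CPM, a gene's share of the library's counts scaled to a common total with the TMM factors of edgeR, and differences as log2 fold changes of mutants over controls from edgeR's quasi-likelihood test, with p-values adjusted over all 18459 genes. The targeted gene was lower in each mutant, with *Jag1* between 24.2 and 42.9 CPM in mutants and between 83.0 and 118 CPM in controls. *Sox2* averaged 24.8 ± 3.60 CPM in the mutants against 33.9 ± 6.49 CPM for controls (SD over 6 mice each; edgeR adjusted p = 0.143). Markers of other cells differed between the libraries. The summed level of 14 neuron markers ran from 185 to 330 CPM in controls and from 214 to 1530 CPM in mutants, and that of 11 Schwann cell markers from 500 to 1470 CPM and from 1230 to 6300 CPM. None of these 25 markers was called by edgeR, but 12 of the 14 and 10 of the 11 were higher in mutants at an unadjusted p under 0.05, as were 6.52% of all genes. Mutants 1, 2 and 4 had the 3 highest neuron sums. The sums of 12 supporting cell markers (5870 to 7390 CPM in controls, 4870 to 6640 CPM in mutants) and of 12 hair cell markers (487 to 537 and 454 to 579 CPM) also overlapped between genotypes, and 3 of the 12 supporting cell markers (*Sox2*, *S100a1* and *Tectb*) were lower at an unadjusted p under 0.05, 1 (*Ngfr*) was higher, and none of the hair cell markers passed. The 10 macrophage markers had sums of 334 to 424 CPM in controls and 270 to 367 CPM in mutants. All 10 had log2 fold changes below 0, and 4 of them had an unadjusted p under 0.05. So had 9 of 9 mesenchyme, 9 of 10 mural, 10 of 12 endothelial and 7 of 9 stria vascularis markers a log2 fold change below 0. The share was 8 of 12 for supporting cells, 6 of 12 for hair cells, 3 of 8 for dividing cells and 9056 of 18459 for all genes. No marker was at 0 in every library. Markers of mesenchyme were also plentiful, with a sum of 13800 to 17200 CPM in controls and 13300 to 14500 CPM in mutants, and the labels give the tissue as cochlea. From RNA of such tissue alone, fewer cells of a type and less RNA per cell cannot be told apart. By the study's own cell counts at P6, mutants of this genotype had lost many Hensen's cells, a kind of supporting cell. Their hair cell numbers were similar to those of controls. Whether the loss of Hensen's cells bears on the levels given here was not tested.

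Divided by the exonic length of each gene, the highest control levels among the 8 genes were those of *Hey1*, at 16.0 ± 1.48 CPM per kb, and *Heyl*, at 13.9 ± 0.500 CPM per kb (SD, n = 6), and the ranges of these neighbors overlapped. *Hes6* and *Hes1* followed at 10.6 ± 1.08 and 8.39 ± 1.02 CPM per kb, also with overlapping ranges. *Hey2* at 4.74 ± 0.437 and *Rbpj* at 3.38 ± 0.541 CPM per kb formed the next overlapping pair. *Nrarp* stood below all of these at 1.146 ± 0.153 CPM per kb, and *Hes5* was lowest at 0.334 ± 0.127 CPM per kb. In mutants *Hey1* was at 9.61 ± 1.17 CPM per kb, and *Heyl* at 11.8 ± 1.08 CPM per kb, again with overlapping ranges. These lengths come from all annotated transcripts, so a gene with many of them, such as *Rbpj*, is divided by more than a single transcript would give.

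**Figure D1:**
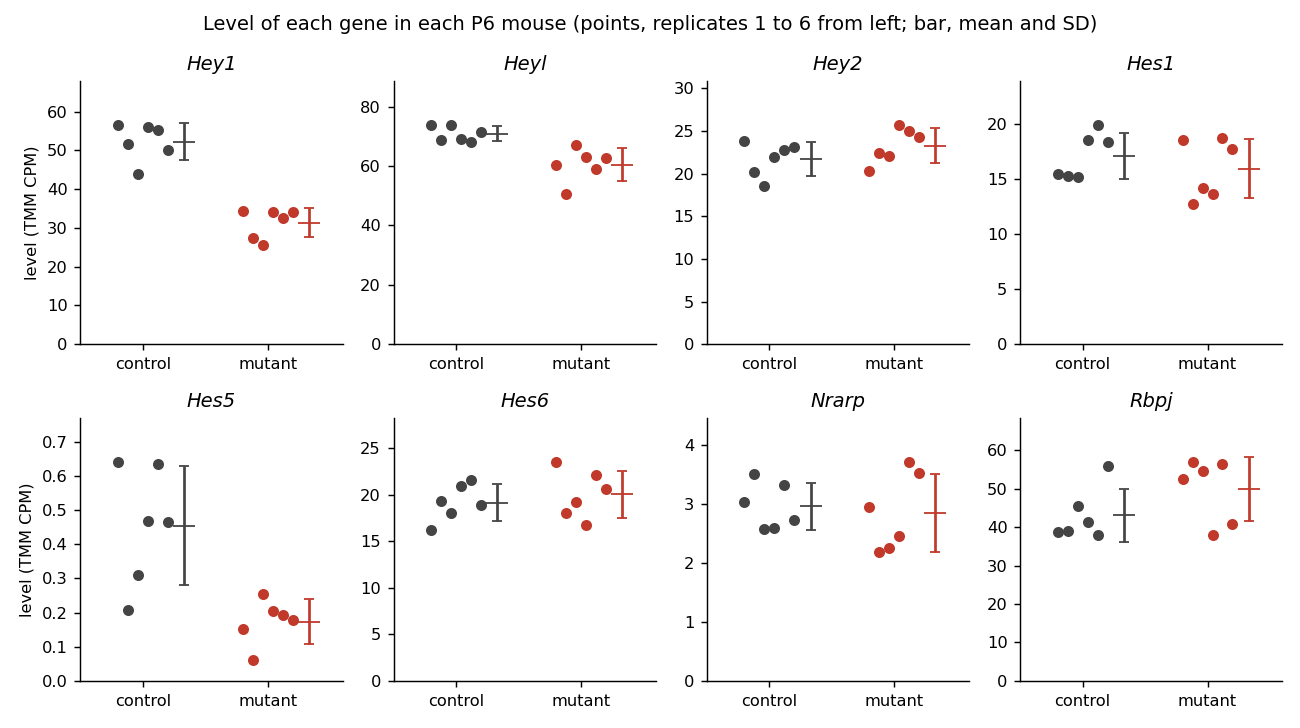
The level of each of the 8 genes (vertical axis, TMM CPM, from 0) is plotted for each of the 6 control and 6 mutant mice (points), with the mean and SD beside them. *Hey1* lies between 43.9 and 56.6 CPM in controls and between 25.7 and 34.3 CPM in mutants without overlap, the groups of *Heyl* also stay apart, and the other 6 genes overlap.

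Of the 8 genes, *Hey1* fell in the mutants and the other 7 did not pass edgeR's test at an adjusted p under 0.05. Over all genes, edgeR called 0.19% in either direction and 0.0813% as lower in mutants. *Hey1* (chr3:8663359-8667256, minus strand) encodes a repressor that is induced by Notch in many tissues. The gene lies on the same chromosome as *Sox2*. Effects of any variants inherited with the CreER allele therefore cannot be told apart here from those of the loss of *Jag1*. Its lowest, median and highest levels were 43.9, 53.4 and 56.6 CPM in controls and 25.7, 33.3 and 34.3 CPM in mutants. The highest mutant was thus well below the lowest control, and 5 of the 6 controls were above 50 CPM. The means were 52.3 ± 4.82 CPM (controls) and 31.4 ± 3.81 CPM (mutants; SD over 6 mice each), and the fitted change was -0.74 on the log2 scale (SE 0.089, edgeR adjusted p = 0.00204). As a share of the control level this has a 95% interval of 52.6% to 68.4%. The mutant with the least *Jag1* (mutant 1, 24.2 CPM) had 34.3 CPM of *Hey1*, nearly the same as mutants 4 and 6 at 34.1 CPM each. Mutants 3 and 2 had the least *Hey1* (25.7 and 27.4 CPM) and the least *Sox2* (19.9 and 21.6 CPM). Control 3 had the least *Jag1*, *Hey1* and *Sox2* of the controls (83.0, 43.9 and 22.7 CPM). Mutant 5 had the most *Sox2* of the mutants (29.4 CPM) but less *Hey1* than mutants 1, 4 and 6. Whether *Hey1* follows *Jag1* or *Sox2* from mouse to mouse was not tested.

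The neuron and Schwann cell markers moved with genotype too, and *Hey1* was called in each alternative tried except the one with those 2 marker scores in the model. In that fit the estimate for *Hey1* was -0.76 with an SE of 0.144 (edgeR adjusted p = 0.235), and *Jag1*, the deleted gene, was not called either (log2 fold change -1.40, SE 0.207, edgeR adjusted p = 0.0885), with 1 gene called over the whole table. Mutant 5, whose neuron and Schwann cell sums (214 and 1330 CPM) lay within the control ranges, had 32.5 CPM of *Hey1*. This was below every control, as were all the mutants. Its mural cell sum (802 CPM) was also below every control. The values of 1 mouse were not a test of the part of neurons and Schwann cells in the level of *Hey1*. Without mutants 1, 2 and 4, a choice made after seeing the data, *Hey1* stood at -0.76 (edgeR adjusted p = 0.00966). That removal followed the neuron sums alone. Mutant 4 had the lowest Schwann cell sum of the mutants, and mutants 3 and 6, which were kept, were above every control in the sums of neuron markers (333 and 441 CPM) and of Schwann cell markers (2430 and 2320 CPM). With the supporting and hair cell scores as covariates it stood at -0.72 (edgeR adjusted p = 0.00226).

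*Heyl* (chr4:123233556-123249875, plus strand), a relative of *Hey1* known from the smooth muscle of vessels, was the other gene whose groups did not overlap. Its lowest, median and highest levels were 68.0, 70.4 and 73.9 CPM in controls and 50.7, 61.6 and 67.0 CPM in mutants. The controls lay close together and the mutants were more spread, with mutant 2 lowest and mutant 3 nearest to the controls. Over all genes, 0.379% had every mutant below every control. *Heyl* had a log2 fold change of -0.23 (SE 0.064), and its exact permutation p was 0.00216, the smallest that 924 divisions of the mice can give, but its edgeR adjusted p was 0.129. DESeq2 gave an adjusted p of 0.0287, in a fit that called 0.791% of genes as lower in mutants. Mutant 5 had 59.0 CPM of *Heyl*, below every control, as were all the mutants. The summed mural cell markers were 876 to 1030 CPM in controls and 802 to 957 CPM in mutants, 1 of the 10 tested was lower at an unadjusted p under 0.05, and their part in the level of *Heyl* was not tested apart from the endothelial markers. With mural and endothelial scores as covariates, *Heyl* stood at -0.30 (edgeR adjusted p = 0.04998).

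*Hey2* (chr10:30832359-30842801, minus strand), known in the developing heart and in pillar cells, a kind of supporting cell, had lowest, median and highest levels of 18.6, 22.4 and 23.9 CPM in controls and 20.3, 23.3 and 25.7 CPM in mutants. The groups overlapped over most of their ranges. Its log2 fold change of 0.10 had a 95% interval of -0.07 to 0.27 (edgeR adjusted p = 0.778), which leaves out a decrease of the size seen in *Hey1*.

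**Figure D2:**
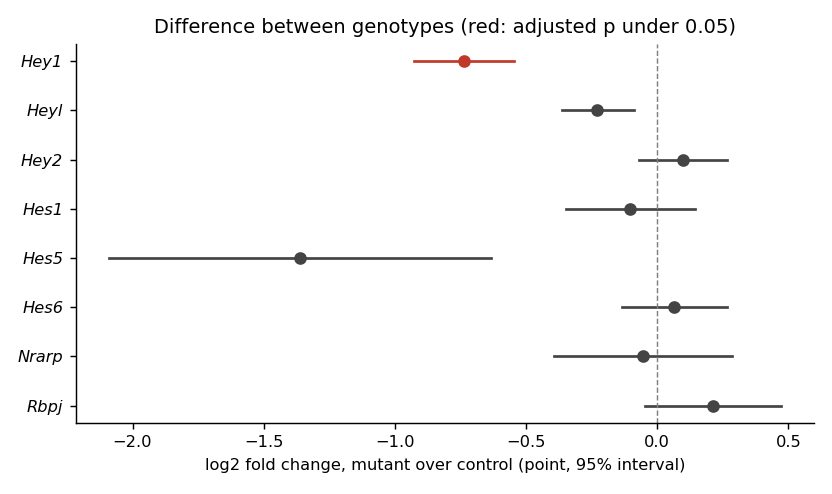
The log2 fold change of mutants over controls (horizontal axis) is drawn for each gene as a point with its 95% interval from the edgeR fit, in red where the adjusted p is under 0.05. *Hey1* at -0.74 is the single red gene, *Hes5* at -1.36 has the widest interval, and those of *Heyl* and *Hes5* also stay below 0.

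*Hes5* (chr4:154960923-154962371, plus strand), a Notch target of supporting cells and neural progenitors, had the lowest level and the largest difference of the 8 genes. Its lowest, median and highest levels were 0.208, 0.466 and 0.642 CPM in controls and 0.0607, 0.185 and 0.254 CPM in mutants. Each mutant was below the median control, but controls 2 and 3, at 0.208 and 0.310 CPM, lay within or near the mutants' range. These levels stand for 2 to 22 counts per library, so counting error alone is a large part of each value. Its fitted change was -1.36 on the log2 scale (SE 0.34, 95% interval -2.09 to -0.63) with an exact permutation p of 0.00433, and the edgeR adjusted p was 0.0958. The unadjusted edgeR p was 0.00123, and 4.04% of all genes were lower at an unadjusted p under 0.05. DESeq2 gave an adjusted p of 0.04405. Exons of an RNA on the opposite strand, *Gm20421*, overlap *Hes5* in the annotation, and the strand setting of the counting is not given in the sources used here.

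The parts of the *Hes5* and *Hey2* promoters that hold the core of the RBPJ site are shown, since *Hes5* had the largest difference of the 8 genes and the ratio of *Hes5* to *Hey2* differed between genotypes (adjusted permutation p = 0.0135). The stretches come from RefSeq on GRCm38.p6, read 5′ to 3′ on the strand of the gene, with the core in capitals (TGGGAA on the gene's strand and its reverse complement TTCCCA where the core lies on the other). That of *Hes5* is chr4:154960677-154960866, on the plus strand, 246 to 57 bases before the start site, upstream of the gene and partly within the opposite exon of *Gm20421*. That of *Hey2* is chr10:30842965-30843010, on the minus strand, 227 to 182 bases before the start site and outside any annotated exon.
Hes5: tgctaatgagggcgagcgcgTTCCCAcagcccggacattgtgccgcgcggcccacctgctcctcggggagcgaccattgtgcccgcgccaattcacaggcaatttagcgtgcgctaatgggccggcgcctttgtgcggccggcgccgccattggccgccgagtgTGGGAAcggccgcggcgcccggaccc
Hey2: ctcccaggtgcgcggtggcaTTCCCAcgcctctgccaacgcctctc

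The 250 bases before the start site were searched on both strands for this core and for short sites that HES and HEY proteins bind (CACGTG, then CACGCG, and the N-box written CACNAG), in the 5 of the 8 genes with an entry, which have 7 start sites. *Hes1*, *Hey1* and *Heyl* had none. The 2 cores of *Hes5* lie on opposite strands, 226 to 221 and 82 to 77 bases before the start, and *Hey2* holds 1. At least 1 core stands in 21.6% of all 32851 promoters and 2 or more in 2.77%. *Rbpj* holds 2 before one start site and 1 of these again before its other one, and *Hes6* and *Nrarp* hold none. *Nrarp* holds 1 CACGTG, found in 6.02% of all promoters, and 2 matches of CACNAG, of which 36.7% of all promoters hold at least 1 and 8.18% hold 2 or more. *Hes6* holds 1 CACNAG before one of its start sites. CACGCG, in 7.62% of all promoters, was in none of the 7 windows.

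*Hes1* (chr16:30064384-30067796, plus strand), a repressor that many signals besides Notch induce, had lowest, median and highest levels of 15.1, 16.9 and 19.9 CPM in controls and 12.7, 15.9 and 18.7 CPM in mutants. In both genotypes 3 mice were low and 3 were high, and the genotypes overlapped. It had a log2 fold change of -0.10 (95% interval -0.35 to 0.14, edgeR adjusted p = 0.865), so a decrease of the size of that in *Hey1* lies outside the interval. *Hes6* (chr1:91411483-91414038, minus strand) encodes a relative that hinders HES1 and is present in differentiating hair cells and neurons. Its lowest, median and highest levels were 16.2, 19.1 and 21.5 CPM in controls and 16.7, 19.9 and 23.6 CPM in mutants, and its log2 fold change was 0.07 (95% interval -0.14 to 0.27, edgeR adjusted p = 0.905). Here too the 6 mutants and the 6 controls spanned nearly the same range.

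*Nrarp* (chr2:25180758-25183339, plus strand), a feedback inhibitor that binds the Notch complex, had lowest, median and highest levels of 2.58, 2.88 and 3.51 CPM in controls and 2.18, 2.70 and 3.72 CPM in mutants. The mutants reached both lower and higher than the controls, with 3 on either side of the control median. Its log2 fold change was -0.06 (95% interval -0.40 to 0.28, edgeR adjusted p = 0.96), and its sign turned under 4 of the alternatives. Exons of the antisense RNA *Gm38287* overlap this gene. *Rbpj* (chr5:53466152-53657362, plus strand) had lowest, median and highest levels of 37.9, 40.2 and 55.9 CPM in controls and 38.1, 53.5 and 57.0 CPM in mutants. Its values fell into a lower set up to 45.6 CPM and a higher set from 52.5 CPM, with 1 control and 4 mutants in the higher set. *Rbpj* had a log2 fold change of 0.21 (95% interval -0.05 to 0.47, edgeR adjusted p = 0.61). Pseudogenes of *Rbpj* exist in the annotation, and how reads shared with them were counted is not given in the sources used here.

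Whether one gene differed more than another was tested on the ratio of the 2 within each library, as the difference of their log2(CPM + 0.1), by exact permutation over the 12 mice. Of the 28 pairs, 14 had a p under 0.05 after adjustment over the pairs. Among them were 6 with *Hey1*, whose ratio to *Hes1*, *Hes6*, *Hey2*, *Heyl*, *Nrarp* and *Rbpj* was lower in mutants (each exact permutation p = 0.00216, adjusted p = 0.0101). The ratio of *Hey1* to *Hey2* differed by -0.84 on the log2 scale and that to *Heyl* by -0.51. *Hes5* was likewise lower relative to these 6 genes, with adjusted permutation p-values from 0.0135 to 0.028. The pairs of a gene reuse its same 12 values, so the 6 of *Hey1* and the 6 of *Hes5* are not separate results. By itself *Hes5*, at 2 to 22 counts per library, was not called over all genes (edgeR adjusted p = 0.0958). *Hes5* and *Hey1* were not told apart, with a difference of -0.25 (exact permutation p = 0.305, adjusted p = 0.407), on a scale where the 0.1 CPM added before the logarithm makes the change of *Hes5* smaller. *Heyl* was lower relative to *Hey2* by 0.33 (adjusted permutation p = 0.0135) and relative to *Rbpj* by 0.44 (adjusted permutation p = 0.039). None of the pairs among *Hes1*, *Hes6*, *Hey2*, *Nrarp* and *Rbpj* passed. With mutants 1, 2 and 4 left out, 0 of the 28 pairs passed, in a design of 3 mutants whose smallest p is 0.0119.

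**Figure D3:**
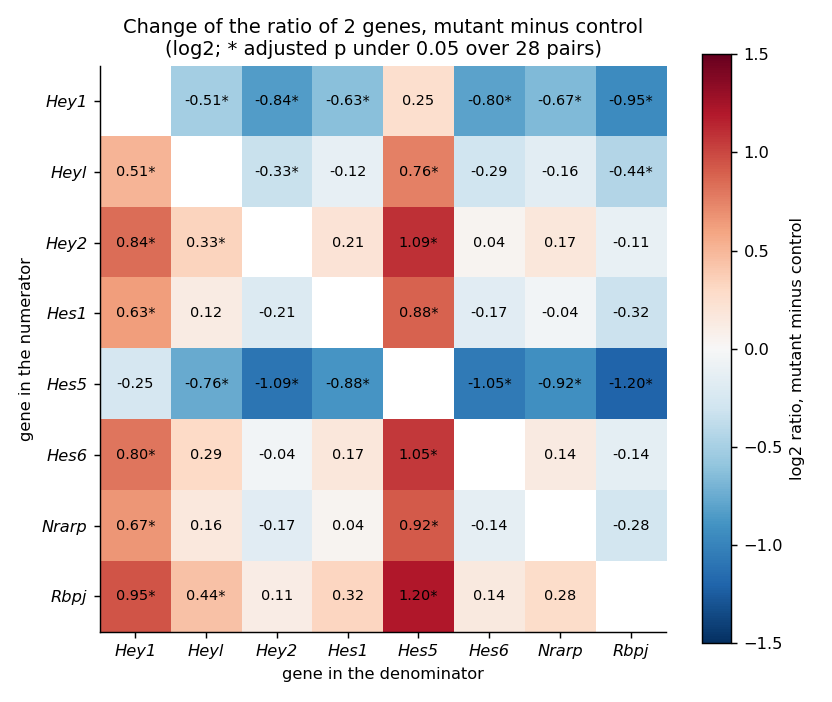
Each cell gives the log2 ratio of the gene of its row to that of its column in mutants minus that in controls, with an asterisk where the exact permutation p adjusted over the 28 pairs is under 0.05. The rows of *Hey1* and *Hes5* are negative against the 6 other genes, and their own ratio at -0.25 has no asterisk.

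The differences between mice of one genotype were described by the correlation of each gene's deviations from its genotype mean over the 12 libraries, for the 6 members with a mean count of at least 100. *Hes1* and *Hes6* varied together most closely (Pearson r = 0.849), *Hes1* and *Hey1* less so (r = 0.558), and *Hey1* and *Rbpj* in opposite directions (r = -0.568), while *Hey1* and *Heyl* had an r of 0.018. Among 13058 genes, the 3 most like *Hes1* were *Tcf3* (r = 0.936), *Hexim1* and *Vegfb*, and those most like *Hes6* were *Exoc3l* (r = 0.969), *Rpl13* and *Fam53a*. *Hes6*, *Tcf3*, *Exoc3l* and *Vegfb* have 60.7% to 62.6% G and C in their transcripts, against a median of 49.8% over the genes tested, while *Hes1*, *Hexim1*, *Rpl13* and *Fam53a* have 49.2% to 52.0%. The part of base composition in these correlations was not tested. *Spryd7* (r = 0.942), *Sms* and *Chsy1* were most like *Hey1*. Those most like *Hey2* were *1700049G17Rik* (r = 0.92), *Alg11* and *Jrkl*, and those most like *Heyl* were *Toe1* (r = 0.911), *Tnfrsf11b* and *Gmppb*. *Rbpj* had weaker partners in *Helq* (r = 0.848), *Adck2* and *Thap6*. None of these 18 genes was called between genotypes. All these points share their library, so its depth and base composition enter both sides of each correlation.

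**Figure D4:**
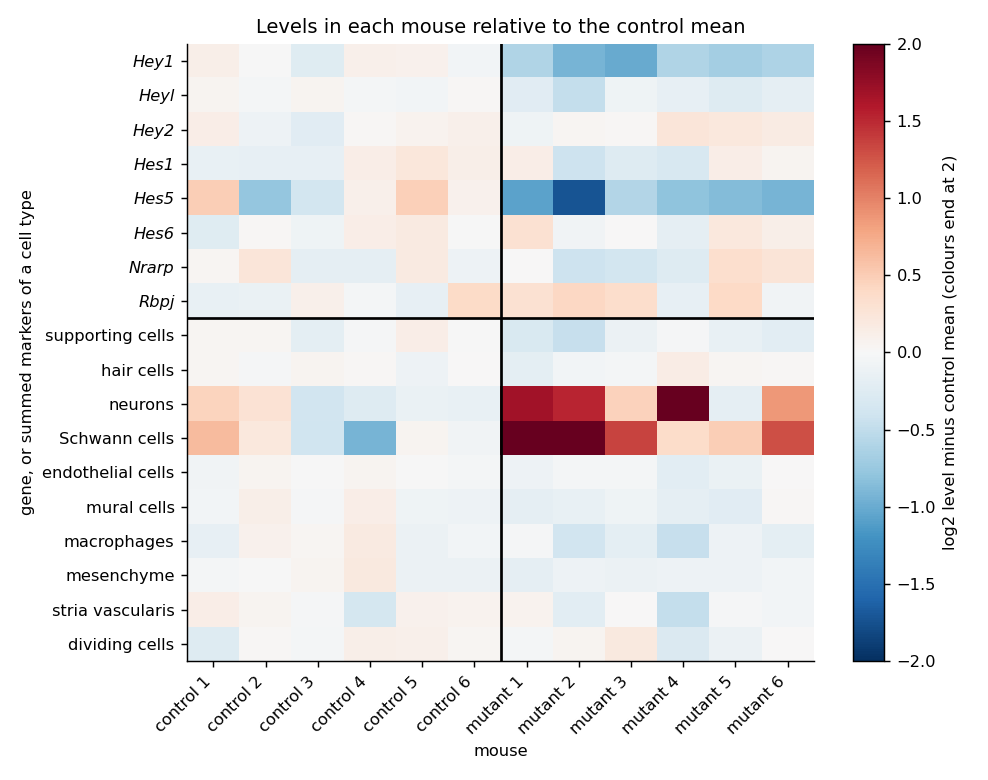
Each column is a mouse, and the color gives the log2 level of a gene (upper 8 rows) or of the summed markers of a cell type (lower 10 rows) minus the control mean, with colors ending at 2. *Hey1* is blue in each mutant, while the neuron row is deep red in mutants 1, 2 and 4 and near the controls in mutant 5.

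The rest of the pathway was read from 8 lists holding 81 other genes, of which 74 were tested. Of these, 2 were called, *Jag1* and *Lfng*, both lower, and none higher. Over all genes, edgeR called 15 lower (0.0813%) and 20 higher, which is 0.19% in either direction. *Jag1* was the gene deleted, so its fall was set by the design. At an unadjusted p under 0.05, 5 of the 74, *Jag1* among them, were lower and 1 was higher. Of all genes, 4.04% were lower and 6.52% higher. The median log2 fold change of the 74 was -0.06 and that of all genes tested was 0.003. A median below 0 was not particular to the pathway. The medians of the marker lists ran from -0.2 (macrophages) to 2.501 (neurons). Those of mesenchyme and of mural cells were both -0.12, and that of hair cells was 0.014. *Lfng* encodes a glycosyltransferase that changes which ligands a Notch receptor answers to. Controls had 57.3 ± 2.50 CPM of it and mutants 42.0 ± 4.51 CPM (SD over 6 mice each), which differ by -0.45 on the log2 scale (edgeR adjusted p = 0.0204), and the groups did not overlap. Its call was lost without control 2, 4, 5 or 6 or mutant 2 or 6 (log2 fold change -0.46 to -0.42, edgeR adjusted p from 0.0525 to 0.0747), with the GC correction (-0.41, edgeR adjusted p = 0.0659) and with the neuron and Schwann cell scores (-0.30, edgeR adjusted p = 1.0).

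Among the ligands, *Dll1* stood at -0.23 on the log2 scale (edgeR adjusted p = 0.592), and the other 5 besides *Jag1* had larger p-values. The 4 receptors had log2 fold changes below 0 and none was called. Those with the smallest p were *Notch3*, the receptor of mural cells (-0.19, edgeR adjusted p = 0.476), and *Notch4*, that of endothelial cells (-0.10, edgeR adjusted p = 0.762). Of the 15 genes for enzymes that cut or glycosylate the receptors, *Furin*, a protease of the secretory path, had -0.20 (edgeR adjusted p = 0.165). The single gene that was higher at an unadjusted p under 0.05 was *Aph1b*, a subunit of γ-secretase, chosen after its values were seen (0.57, edgeR adjusted p = 0.199). In the group for ligand endocytosis and receptor turnover, *Neurl1b* (-0.26) and *Dtx2* (-0.10) led without being called. Of the 23 partners of RBPJ, the histone deacetylase gene *Hdac1* (-0.12) and the corepressor gene *Aes* (-0.17) had the smallest p-values, and none was called.

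None of the tested activators of the same protein class, their partners, the other Hes-related genes or the Id genes was called. *Atoh1*, the activator that starts hair cell formation, had 0.350 ± 0.106 CPM (controls) and 0.453 ± 0.129 CPM (mutants; SD over 6 mice each), which differ by 0.38 on the log2 scale (edgeR adjusted p = 0.73). *Tcf3*, whose protein pairs with ATOH1, had -0.09 (edgeR adjusted p = 0.768). Of the 4 other Hes-related genes tested, *Bhlhe41* had 0.16 and *Helt* 0.35, and of the Id genes, whose proteins hold such partners from DNA, *Id3* had -0.14 and *Id1* -0.08. Their edgeR adjusted p-values ran from 0.651 (*Bhlhe41*) to 0.893 (*Id1*).

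**Figure D5:**
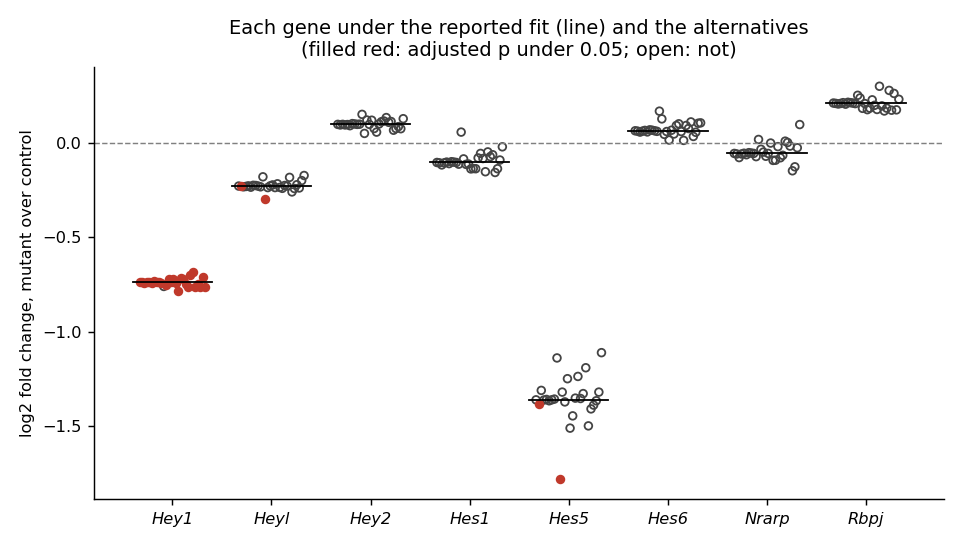
The log2 fold change of each gene (vertical axis) is given for the reported fit (line). Points give that fit and each alternative that tested the gene, filled red where the adjusted p is under 0.05. *Hey1* stays near -0.74 and is filled throughout but for 1 point, *Hes5* and *Heyl* are filled at 2 points each, and the other 5 genes at none.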

How the data were processed

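RNA was purified from cochlear tissue of 12 P6 mice and read as single-end reads of 100 nucleotides. By the submitters' processing notes, Trimmomatic 0.32, STAR 2.4.2a, HTSeq 0.9.1, DESeq2 1.10.1 and the build GRCm38.p4 were used, while the annotation and the strand setting are not given in the sources used here. The table deposited by the authors gives whole-number counts for each symbol and mouse, without normalization or pooling. Their second table holds their own fold changes and p-values and was not used.

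Genotype and replicate number came from the sample labels. Genes whose counts averaged 5 or more were compared in edgeR 4.0.16 (R 4.3.3) by the robust quasi-likelihood F-test with TMM scaling and no covariate, two-sided, on 6 mice per genotype, with Benjamini-Hochberg adjustment over 18459 genes. Single genes and ratios of genes were compared by exact two-sided permutation of log2(CPM + 0.1) over 924 divisions. Correlations used log2 CPM with a prior count of 2. Alternatives were DESeq2 1.42.0 (no prior on fold changes), limma-voom (limma 3.58.1), other scalings and filters, non-robust estimation, a replicate block, marker scores or the level of *Xist* as covariates, an adjusted p under 0.01, log2(CPM + 1) for the ratios, and each mouse left out. A GC correction in bins of transcript GC content and the removal of mutants 1, 2 and 4 were chosen after seeing the data. The tests were checked on simulated data.

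Positions and lengths come from GENCODE M21 (GRCm38). The 8 genes, the pathway and marker lists and the tests were chosen with earlier results of these data known. The genes named are the 8, *Jag1*, *Sox2*, the called genes and the 2 smallest p-values of each pathway list, the 3 genes most like each member and markers at 0. Counting error weighs most on *Hes5* (2 to 22 counts per library) and *Nrarp* (72 to 136), and the other 6 genes had at least 420 counts in each library.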

Additional observations from a re-analysis of the deposited data

How the results depend on the processing

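The number of genes called over the whole table (35) depended on the fit. DESeq2 called 619, limma-voom 19, no filter on low counts 57, the *Xist* level as a covariate 23 and an adjusted p under 0.01 8 genes. With marker scores as covariates it was 1 (neurons and Schwann cells), 321 (endothelial and mural cells) and 491 (supporting and hair cells), and leaving out each mouse gave 14 (without control 2 or 6) to 356 (without mutant 5). Of the 8 genes, 1 was called, *Hey1*, against 3 in DESeq2 and with the endothelial and mural cell scores (*Hes5* and *Heyl* besides) and 0 with the neuron and Schwann cell scores. *Hey1* was called without each mouse in turn, with a log2 fold change of -0.78 to -0.69 and an edgeR adjusted p of 0.00185 to 0.00873. Of the pathway genes, 2 were called, against 0 with the neuron and Schwann cell scores, 1 with the GC correction and 1 to 3 when a mouse was left out. The sign turned for *Hes1* with the neuron and Schwann cell scores (0.058) and for *Nrarp* with those scores (0.019), without mutants 1, 2 and 4 (0.098) and without mutant 2 or 3 (range over mice left out -0.15 to 0.01). The cause of these changes was not tested. Same-numbered mice deviated together in some pairs and not in others (r from -0.0946 to 0.386, 2 of 6 mice closest to their own number), so they were not treated as paired. The replicate block called 131 genes, with *Hey1* the 1 called of the 8. Ratios of gene pairs (14 called) gave 0 under sign flips of same-numbered pairs, a replicate block whose smallest exact p is 0.0312. None can pass adjustment over the 28 pairs at that floor unless most of them stand at it. That 0 therefore cannot show whether the ratios depend on the block. Without mutants 1, 2 and 4 the ratios also gave 0. There the smallest exact p is 0.0119, and several pairs must stand at it for any to pass. No other direction of the 8 genes turned under the alternatives run. The stricter filters on low counts left *Hes5* out, so it has no value under them.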
